A study of Mus musculus with 8 samples.

Results

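The xenobiotic metabolism genes are a group of liver enzymes and receptors that handle drugs, toxins, steroids and other small lipophilic molecules. Members were chosen by gene symbol: cytochrome P450 genes (Cyp followed by a digit, without Cyp51), Ugt1 and Ugt2 glucuronosyltransferases, Gst and Mgst glutathione S-transferases, Sult sulfotransferases, Aldh aldehyde dehydrogenases, and the receptor genes Ahr, Nr1i2 and Nr1i3. A gene also needed at least 10 raw counts summed over the 4 mRNA samples. Of 21915 genes listed, 134 had such a symbol and 86 reached the minimum, while 48 did not. The minimum used the same counts as the levels below, so those levels are a description. Just inside the minimum were Ugt1a6a with 10 counts, Cyp2ab1 with 12, Cyp2c67 with 15 and Cyp2b10 with 16. Just outside were Aldh8a1 and Ugt1a6b with 9 counts each, and Cyp21a2-ps and Gstt4 with 8 each. Nr1i2, which encodes the pregnane X receptor, was below the minimum.

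The study examined what KAP1 (Trim28), a transcriptional corepressor recruited by zinc finger proteins, does to RNA output in mouse liver cells. Polyadenylated RNA was sequenced from Hepa 1-6, an established mouse hepatoma line grown in DMEM with fetal calf serum. Cells were transduced 5 days before collection with a vector for an shRNA against Kap1 (Kap1 KD, 2 samples) or with the control (2 samples), which the labels call a control shRNA and the methods an empty vector. Infected cells were selected with puromycin, so both groups carried a vector and had met the drug. A single line and a single Kap1 shRNA were used, and a hepatoma line is a limited model of the adult hepatocyte. In each group the title of 1 sample ends in a 2, and that sample is called number 2 and the other number 1. Nothing states that the samples were separate cultures, so p-values measure the spread between these samples, which may be technical. Total counts were 53605115 in control 1, 49915004 in control 2, 41566888 in Kap1 KD 1 and 49578846 in Kap1 KD 2.

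Xenobiotic metabolism runs in steps. Cytochrome P450 enzymes oxidize a substrate with electrons from the reductase Por, aldehyde dehydrogenases oxidize aldehydes to acids, and transferases then attach glucuronic acid, glutathione or sulfate so that the product can be excreted. In liver, many of these genes are switched on by ligand-activated receptors: AHR with its partner ARNT for Cyp1 genes, and the nuclear receptors CAR (Nr1i3) and PXR (Nr1i2) for Cyp2b and Cyp3a genes.

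Trim28, the targeted gene, stood at 456 and 575 CPM in control 1 and 2, where CPM is a gene's share of the counts of a sample, with the sample total scaled by TMM. It stood at 106 and 78.9 CPM in Kap1 KD 1 and 2. Both KD samples were thus far below both controls, with a log2 fold change of -2.48 (SE 0.25). Even this gene was not called, with a Benjamini-Hochberg adjusted p of 0.9999 by the edgeR quasi-likelihood test. It was called by DESeq2, and by edgeR with any 1 of control 1, control 2, Kap1 KD 1 or Kap1 KD 2 left out.

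The labelled cell type was checked against marker genes. Of 10 hepatocyte markers, 9 were listed, and albumin (Alb) was the most abundant at 1580 and 1037 CPM in the controls and 975 and 441 CPM in Kap1 KD. Of 4 hepatoma or fetal liver markers, Afp was the most abundant, at 697 and 750 CPM in the controls and 604 and 445 CPM in Kap1 KD. The rest of that list was low. Igf2 stood at 0.969 and 1.25 CPM in the controls and 0.962 and 2.74 CPM in Kap1 KD. Gpc3 was at most 0.685 CPM and H19 at most 0.0469 CPM in any sample. The urea cycle gene Cps1 and the secreted protein genes Ttr and Serpina1a were near 0 in all 4 samples, and Apoa1 was at most 0.423 CPM. The line therefore kept part of the hepatocyte marker list only. Of the macrophage markers, Ptprc and Emr1 were each at most 0.171 CPM, while Cd68, the most abundant, stood at 3.91 and 6.33 CPM in the controls and 3.19 and 7.42 CPM in Kap1 KD. Csf1r stood at 1.04 and 3.22 CPM in the controls and 0.892 and 2.05 CPM in Kap1 KD, and for both genes the groups overlapped. The endothelial markers Pecam1, Stab2 and Kdr were each at most 0.262 CPM. Dcn, listed as a stellate or fibroblast marker, stood at 1700 and 1301 CPM in the controls and 1690 and 1227 CPM in Kap1 KD, with overlapping groups. The low Col1a1, at 0.575 and 1.03 CPM in the controls and 1.10 and 1.52 CPM in Kap1 KD, was higher without overlap. Des, at 0.987 and 1.13 CPM in the controls and 0.610 and 0.855 CPM in Kap1 KD, was lower without overlap. Of the bile duct markers, Krt7 was the most abundant, at 83.0 and 33.4 CPM in the controls and 66.5 and 25.1 CPM in Kap1 KD, with overlapping groups. Epcam stood at 16.5 and 15.2 CPM in the controls and 12.1 and 8.57 CPM in Kap1 KD, and Sox9 at 37.2 and 40.2 CPM in the controls and 28.7 and 35.7 CPM in Kap1 KD, both without overlap.

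Levels were compared between genes as CPM per kilobase of exon, averaged over the 4 samples. Aldh1a1, a cytosolic enzyme that oxidizes retinal, was highest at 549. The glutathione transferase Gstp1 followed at 439, then Gsto1, which reduces dehydroascorbate and methylated arsenic, at 307, and Gstp2 at 177. The mitochondrial acetaldehyde enzyme Aldh2 had a level of 102. Aldh genes made up 56.3% of the summed CPM of the 86 members, and Gst and Mgst genes 31.3%. All members together held 0.406% of all counts.

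**Figure D1:**
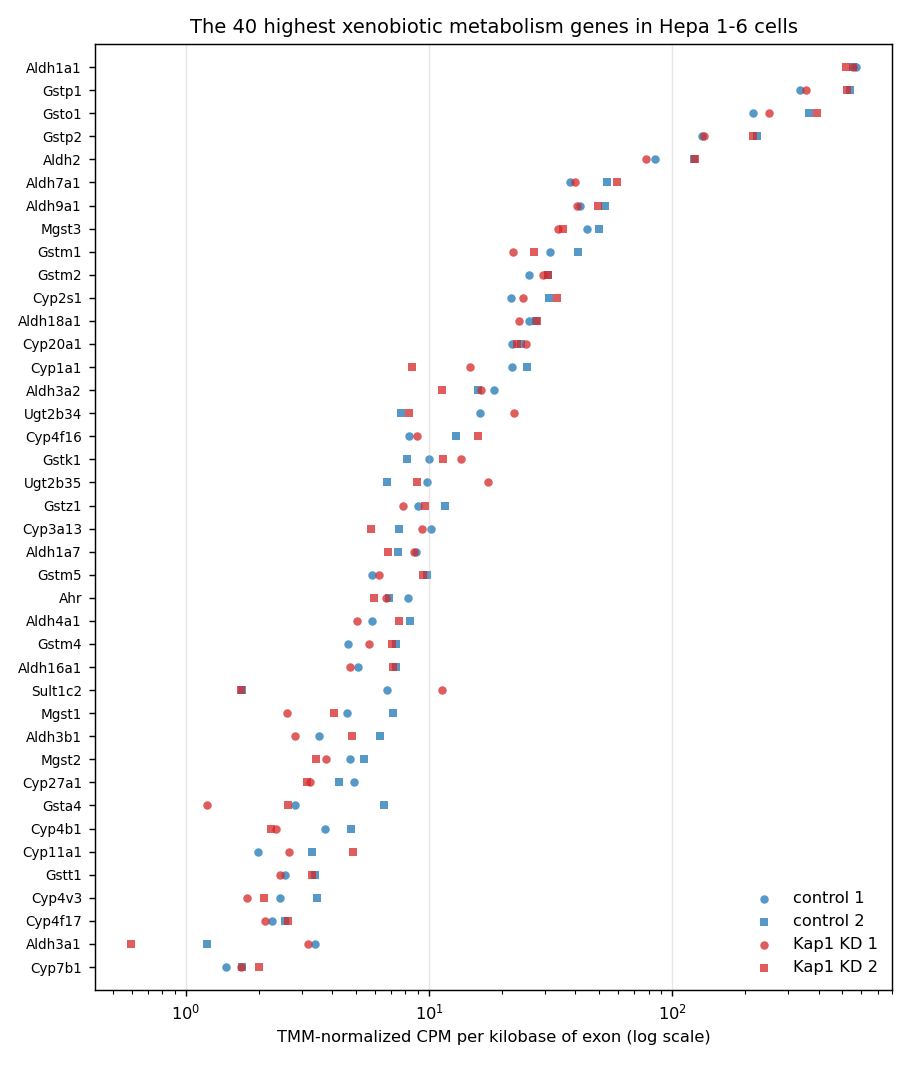
Points give TMM-scaled CPM per kilobase of exon (log axis) in each control (blue) and Kap1 KD (red) sample for the 40 members with the highest mean level, with circles for number 1 and squares for number 2. Aldh1a1, Gstp1 and Gsto1 lead, and for Sult1c2 and Aldh3a1 the squares lie far to the left of the circles.

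P450 genes had lower levels per kilobase. The highest were Cyp2s1, at a level of 27.7 CPM per kilobase, Cyp20a1, an orphan P450, at 23.5, and Cyp1a1, which oxidizes polycyclic aromatic hydrocarbons, at 17.6. These levels pool both groups. Cyp1a1 was lower in Kap1 KD, so its place relative to Cyp20a1 depends on the group. The P450 genes that dominate adult liver were close to the limit of detection. Cyp2e1, which oxidizes ethanol, had 50 counts in all, Cyp2c29 had 19, Cyp3a11 had 1 and Cyp7a1, the rate-limiting enzyme of bile acid synthesis, had 2. In all, 33 members were under 1 CPM in every sample, and 7 were over 100 CPM in every sample.

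Within several subfamilies, a single gene held most of the level per kilobase. Cyp3a13 held 99.6% of the Cyp3a level, and Aldh1a1 held 98.5% of the Aldh1a level. Sult1c2 held 96.7% of the Sult1 level, and Cyp2c68 held 77.8% of the Cyp2c level. The Gstm cluster on chromosome 3 was more even, with Gstm1 at 40.0%. Near-identical copies make the Cyp2c68 share uncertain, since 19.8% of the 100-base stretches of its transcripts occur in another gene. Counts of other members are uncertain in the same way, with 57.3% of such stretches shared for Gstp1, 57.7% for Gstp2, 36.6% for Cyp2c40 and 81.8% for Gsta1. The strand setting of the counting was not stated, and 51.4% of the exonic bases of Nr1i3 overlap a gene on the other strand.

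Of the 86 members, 70 passed the filter on low counts and were tested. In Kap1 KD against control, edgeR's quasi-likelihood test called 0 of these 70 and 0 of all 14142 tested genes (0.0%) at 1.5-fold and an adjusted p under 0.05. An unadjusted p under 0.05 was reached by 185 genes (1.31%), among them the members Gsta3, Cyp1a1 and Cyp4b1. Of these members, Gsta3 passed the filter on low counts only through its controls. DESeq2 called 3 genes (0.0212%) and 0 members. With 2 samples against 2, an exact two-sided permutation test cannot go below p = 0.333.

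Sample values were therefore compared by whether the groups overlapped. Both Kap1 KD samples lay below both controls in 14 of the 70 tested members (20%), against 10.6% of all tested genes. Both lay above both controls in 3 members (4.29%), against 9.69% of all tested genes. These counts include Gsta3 (lower) and Ugt2b1 (higher). For each, the group where it was low would not by itself have passed the filter on low counts. The median log2 fold change was -0.07 over the tested members and -0.02 over all tested genes. With 1 library left out all such counts were larger, because fewer samples have to separate, and how the members stood to all tested genes depended on the library. Lower members were 35 of 70 (50%) without control 1, against 23.3% of all tested genes. They were 31 (44.3%) without Kap1 KD 2 against 26% of all tested genes, and 29 (41.4%) without Kap1 KD 1 against 38.2%. Without control 2 they were 25 (35.7%), below the 38.7% of all tested genes. Higher members were 8 (11.4%) without control 1 against 23.1%, and 19 (27.1%) without control 2 against 33%. They were 16 (22.9%) without Kap1 KD 1 against 36.3%, and 11 (15.7%) without Kap1 KD 2 against 21.9%. In the same samples, 3 of 6 tested hepatocyte markers were lower without overlap, and the markers' summed level was 1741 and 1316 CPM in the controls and 1106 and 654 CPM in Kap1 KD. Of these 3, Apoa1 had 18 and 21 counts in the controls and 5 and 8 counts in Kap1 KD. It passed the filter on low counts only through its controls. Of the 4 bile duct markers, 2 were lower without overlap, Epcam and Sox9, and their list summed to 139 and 89.3 CPM in the controls and 109 and 69.6 CPM in Kap1 KD. Alb, the most abundant hepatocyte marker, had no overlap between groups, and Cps1 was at or near 0. The part of these markers' levels in the member values was not tested, and in bulk samples fewer cells of a type and less RNA per cell cannot be told apart. Kap1 KD 2 stood apart at the 49 loci of 7SK RNA, with 43.0 CPM against 2.39, 1.91 and 2.42 CPM in control 1, control 2 and Kap1 KD 1, and the part of this library in the member values was not tested beyond leaving it out.

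**Figure D2:**
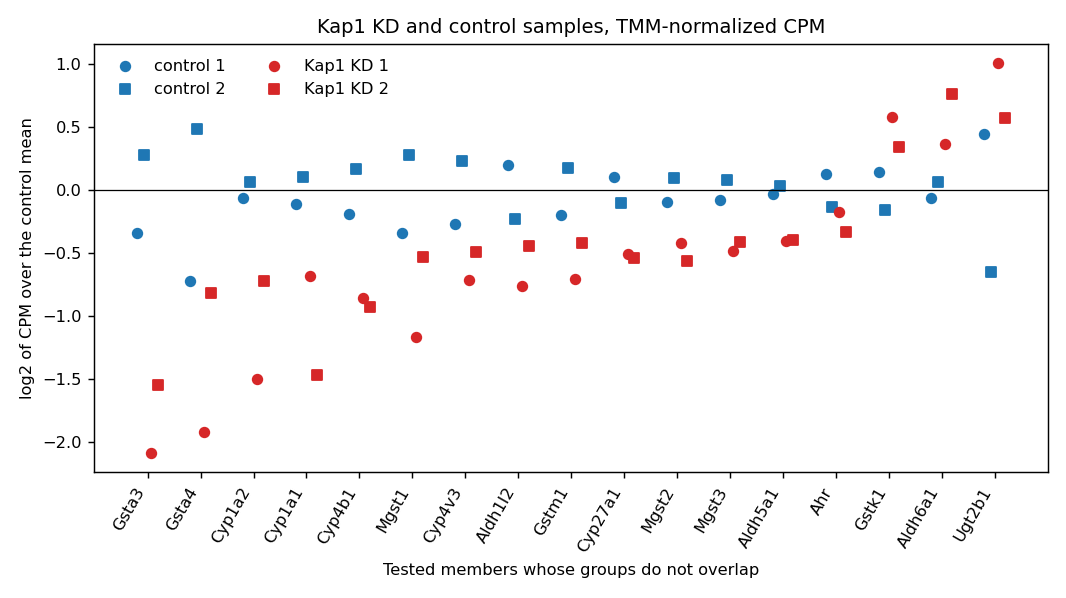
For the 17 tested members without overlap between groups, points give the log2 of each sample's CPM over the control mean, in control (blue) and Kap1 KD (red) samples, with circles for number 1 and squares for number 2. Gsta3 and Gsta4 reach the lowest values, and Gstk1, Aldh6a1 and Ugt2b1 are the 3 genes with both Kap1 KD samples above both controls. Gsta3 passed the filter on low counts only through its controls. The controls of Ugt2b1 by themselves would not have passed it.

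Of the receptors, Ahr, which encodes the aryl hydrocarbon receptor, stood at 50.6 and 42.3 CPM in control 1 and 2 and at 41.1 and 36.8 CPM in Kap1 KD 1 and 2. The groups did not overlap, but Kap1 KD 1 lay close under control 2, and the log2 fold change was -0.25 (SE 0.20), or -0.12 without control 1. Nr1i3 was low, at 0.610 and 0.504 CPM in the controls and 0.728 and 0.449 CPM in Kap1 KD, with overlapping groups.

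Cyp1a1, a classical AHR target, stood at 57.3 and 66.5 CPM in control 1 and 2. In Kap1 KD 1 and 2 it stood at 38.5 and 22.3 CPM. Both KD samples were below both controls and KD 2 was the lowest, and the log2 difference was -0.57 within number 1 and -1.57 within number 2. The fitted log2 fold change was -1.02 (SE 0.32), and it was not called (Benjamini-Hochberg adjusted p = 0.9999, edgeR quasi-likelihood test). Without Kap1 KD 2 the log2 fold change was -0.67. Cyp1a2, which metabolizes caffeine and lies 13957 bases from Cyp1a1 on chromosome 9, had 32 and 31 counts in the controls and 9 and 17 counts in Kap1 KD. Again both KD samples were lower, with KD 1 lowest, and the log2 fold change was -1.05 (SE 0.45). Cyp1b1, the third Cyp1 gene, had 19 counts in all and was not tested.

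The sequence before Cyp1a1 is shown because the groups did not overlap for this gene and its window holds many matches to the AHR-ARNT core. The motif counted here, on both strands, was TNGCGTG, and the 1500 bases before the annotated start of Cyp1a1 hold 7 matches. Among 14115 tested genes with such a window, 2682 hold at least 1 match (19%), as do 11 of the 70 tested members (15.7%), and 1 gene, Cyp1a1 itself, holds as many as 7. The window with the most matches, chr9:57544357-57544656 on the plus strand of mm9, lies 1063 to 764 bases before the start and holds 4 matches, in capitals here (the reverse complement where the match is on the minus strand). It was picked as the 300 bases richest in matches, and no match lies nearer to the start than 487 bases. Of 32851 RefSeq promoter windows of the same length (GRCm38.p6 table), which lie around gene starts, 5.07% hold at least 1 match. The 1500 bases before the start of Cyp1a2 hold 0 matches to TNGCGTG. The shorter GCGTG was also searched, and it has 2 matches there and 12 before Cyp1a1. It is common, since 72.2% of tested genes and 60% of tested members hold it in such a window. A match describes the letters and is not a binding site.
Cyp1a1 upstream window: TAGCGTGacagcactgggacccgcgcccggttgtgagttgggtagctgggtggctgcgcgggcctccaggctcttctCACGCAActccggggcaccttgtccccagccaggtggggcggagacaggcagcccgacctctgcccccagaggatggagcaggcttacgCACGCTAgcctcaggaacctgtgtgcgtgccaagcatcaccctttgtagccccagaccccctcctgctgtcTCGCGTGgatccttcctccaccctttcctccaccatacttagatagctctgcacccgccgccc

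**Figure D3:**
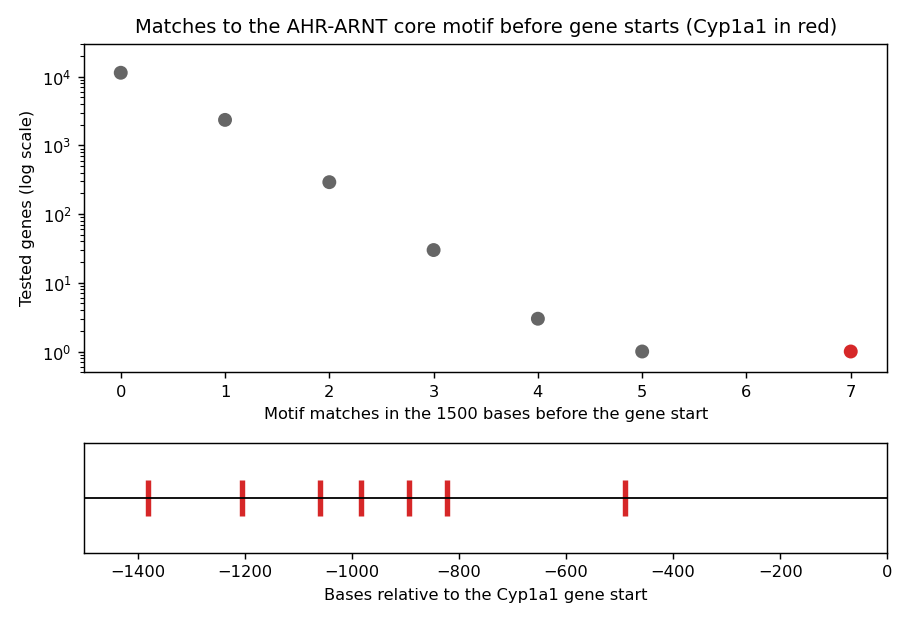
Upper panel: number of tested genes (log axis) by the number of TNGCGTG matches in the 1500 bases before the gene start, with Cyp1a1 in red. Lower panel: positions of the 7 matches relative to the Cyp1a1 start, 4 of which fall between 1063 and 764 bases before it.

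The other genes of the AHR pathway gave smaller values. Of 8 listed genes, 0 were called, 3 were lower in Kap1 KD without overlap and 0 were higher, where all tested genes gave 10.6% and 9.69%. Nqo1, a quinone reductase induced through AHR and NRF2, stood at 5.37 and 6.27 CPM in the controls and 4.53 and 3.14 CPM in Kap1 KD. Arnt, the partner of AHR, stood at 56.2 and 53.9 CPM in the controls and 47.3 and 44.4 CPM in Kap1 KD, and Arnt2 was the third gene. For the AHR repressor gene Ahrr and for Tiparp, both AHR targets, the groups overlapped.

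Among the Cyp4 genes, fatty acid hydroxylases for the most part, Cyp4b1 stood at 8.53 and 10.9 CPM in the controls and 5.38 and 5.11 CPM in Kap1 KD. The KD samples were close to each other and below both controls, with a log2 fold change of -0.89 (SE 0.26). Cyp4v3 stood at 7.18 and 10.2 CPM in the controls and 5.28 and 6.18 CPM in Kap1 KD (log2 fold change -0.60, SE 0.29, and -0.31 without control 2). Of its exonic bases, 10.6% overlap another gene on the same strand. Cyp27a1, a mitochondrial sterol 27-hydroxylase of bile acid synthesis, stood at 9.30 and 8.08 CPM in the controls and 6.10 and 5.96 CPM in Kap1 KD, again without overlap.

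Cyp21a1, the steroid 21-hydroxylase, had the highest fitted log2 fold change of a tested member, 2.15, with an SE of 1.21. It stood at 0.251 and 1.15 CPM in the controls and 0.657 and 5.54 CPM in Kap1 KD. Kap1 KD 2 alone was high, Kap1 KD 1 lay between the controls, and without Kap1 KD 2 the log2 fold change was -0.08. Without Kap1 KD 1 it was 2.99 and without control 2 it was 3.63, and in each of these fits the gene was called by edgeR.

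Of 20 tested glutathione transferase genes, 6 were lower in Kap1 KD without overlap and 1 was higher, against 10.6% and 9.69% of all tested genes. Gsta3, an alpha class enzyme, had 22 and 30 counts in the controls and 5 and 8 counts in Kap1 KD, and the log2 fold change was -1.77 (SE 0.50). Its Kap1 KD counts were too few for the filter on low counts, so it was tested only through its controls. The Gsta3 fold change is therefore a description. Gsta4, which conjugates the lipid peroxidation product 4-hydroxynonenal, stood at 2.69 and 6.23 CPM in the controls and 1.17 and 2.52 CPM in Kap1 KD. Its groups were separate only narrowly, since control 1 lay just above Kap1 KD 2, and the log2 fold change was -1.27 (SE 0.59). It was -0.52 without control 2, -0.82 without Kap1 KD 1 and -1.92 without Kap1 KD 2. The microsomal transferase Mgst1 stood at 9.30 and 14.4 CPM in the controls and 5.26 and 8.17 CPM in Kap1 KD (log2 fold change -0.82, SE 0.36, -0.45 without control 2 and -0.53 without Kap1 KD 1). Gstm1 stood at 44.0 and 57.1 CPM in the controls and 30.9 and 37.7 CPM in Kap1 KD (log2 fold change -0.56, SE 0.24, and -0.34 without control 2). For these genes both KD samples were below both controls, and within each group the sample numbered 2 was the higher. The relatives Mgst2 and Mgst3 had log2 fold changes of -0.49 and -0.45. Gsta2, which was not tested, had 3 and 15 counts in the controls and 0 and 4 counts in Kap1 KD, and its groups overlapped. Gstk1, a kappa class enzyme, went the other way, with 9.30 and 7.56 CPM in the controls and 12.6 and 10.6 CPM in Kap1 KD (log2 fold change 0.46, SE 0.25).

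Promoter windows of Gsta3 and Mgst1 are shown because these are 2 of the transferase genes with the lowest fold changes, although Gsta3 was tested only through its controls. They were searched on both strands for the antioxidant response element core, TGACNNNGC. The core is common: 12.4% of the 32851 RefSeq windows of 300 bases hold it, and in 1500 bases before the start it is held by 40.4% of tested genes and 47.1% of tested members. The windows are from RefSeq (GRCm38.p6 table) and were found once each in mm9, at chr1:21230416-21230715 and chr6:138088798-138089097, both on the plus strand. Capitals mark the match in each, which in Mgst1 is on the minus strand. Mgst1 has another RefSeq window, chr6:138089858-138090157, with 0 matches. The match shown for Mgst1 lies after the start of the gene in the mm9 annotation (138088837), and the 1500 bases before that start hold 0 matches, while those before Gsta3 hold 3. Those before Gsta4, Gstm1 and Mgst3, which were also lower without overlap, hold 0 each, and those before Mgst2 hold 1. Gsta4 had no entry in the RefSeq table.
Gsta3 promoter window: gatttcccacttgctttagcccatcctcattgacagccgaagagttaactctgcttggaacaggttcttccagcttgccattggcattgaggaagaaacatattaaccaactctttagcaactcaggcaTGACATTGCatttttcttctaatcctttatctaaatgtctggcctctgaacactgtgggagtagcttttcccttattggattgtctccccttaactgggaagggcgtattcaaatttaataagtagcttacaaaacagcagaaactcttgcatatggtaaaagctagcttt
Mgst1 promoter window: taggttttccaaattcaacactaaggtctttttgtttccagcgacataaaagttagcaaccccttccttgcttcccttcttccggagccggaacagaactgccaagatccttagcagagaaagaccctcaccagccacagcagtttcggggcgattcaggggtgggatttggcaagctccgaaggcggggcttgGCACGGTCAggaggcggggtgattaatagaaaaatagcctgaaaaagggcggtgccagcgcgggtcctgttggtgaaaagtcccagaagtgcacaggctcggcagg

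Of the NRF2 pathway, which acts through that element, 13 genes were tested, 0 were called, 3 were lower without overlap (Nqo1, Gclm and Me1) and 1 was higher (Srxn1), beside 10.6% lower and 9.69% higher over all tested genes. The glutathione synthesis gene Gclm stood at 94.8 and 89.1 CPM in the controls and 83.3 and 78.7 CPM in Kap1 KD.

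The 17 tested aldehyde dehydrogenase genes had a median log2 fold change of -0.07. Aldh1a1 stood at 1173 and 1133 CPM in the controls and 1136 and 1067 CPM in Kap1 KD, with a log2 fold change of -0.07 (SE 0.16). Aldh1l2, a mitochondrial folate enzyme, stood at 2.60 and 1.93 CPM in the controls and 1.34 and 1.67 CPM in Kap1 KD. Aldh5a1, which oxidizes succinic semialdehyde, stood at 5.51 and 5.74 CPM in the controls and 4.25 and 4.28 CPM in Kap1 KD. Both genes were lower in both KD samples, and Aldh6a1, of valine breakdown, was higher in both, with 1.18 and 1.29 CPM in the controls and 1.60 and 2.09 CPM in Kap1 KD.

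For glucuronosyltransferases, Ugt2b1 stood at 0.431 and 0.202 CPM in the controls and 0.634 and 0.470 CPM in Kap1 KD, without overlap (log2 fold change 0.79, SE 0.53, 1.44 without control 1 and 0.37 without control 2). Its controls had 24 and 10 counts and by themselves would not have passed the filter on low counts. The Ugt2b1 fold change is therefore a description. Ugt2b35, at 32.5 and 22.3 CPM in the controls and 57.8 and 29.5 CPM in Kap1 KD, overlapped between groups. Aldh5a1 and Ugt2b1 were named after their values were seen, to complete the 17 members without overlap. Cyp2b10, the classical CAR target, was not tested. It had 0 and 1 counts in the controls and 5 and 10 counts in Kap1 KD, and it reached the minimum of 10 counts only through the Kap1 KD samples, so no difference is read from these counts.

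The remaining lists of companion genes outside the member rule gave 0 calls as well, and their counts without overlap stand beside 10.6% lower and 9.69% higher over all tested genes. These lists are short, and nothing particular to them is read from the counts. Of 11 tested partners and relatives of the nuclear receptors, 2 were lower without overlap (Ppargc1a and Nr1h4) and 0 were higher. Of 7 genes for P450 electron donors, Cyb5r3 was higher and Pgrmc1 lower, while the groups overlapped for the reductase gene Por, at 123 and 162 CPM in the controls and 106 and 162 CPM in Kap1 KD. Of 13 tested genes for cosubstrate supply and other conjugating or hydrolysing enzymes, 4 were lower (Papss1, Tpmt, Fmo1 and Fmo5). Of 8 tested transporters, Abcc3, an exporter of conjugates, was lower, at 61.5 and 71.3 CPM in the controls and 47.6 and 54.1 CPM in Kap1 KD.

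The members were also compared between the samples numbered 2 and 1. This fit had Kap1 KD as a term, while the fit for Kap1 KD had no term for the number, so counts of calls cannot be compared between the fits. In it, edgeR called 3748 of 14142 genes (26.5%) between the numbers, 1284 higher (9.08%) and 2464 lower (17.4%) in number 2. Of the 70 tested members, 19 were called higher and 10 lower. These counts include Aldh1a3 (higher) and Cyp2c40 and Cyp26b1 (lower). For each, the samples of the number where it was low would not by themselves have passed the filter on low counts. What the number marks is not stated, so this contrast describes spread within the groups.

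Gst and Mgst genes gave 10 of the 19 higher members and 0 of the 10 lower ones. Gsto1 stood at 423 and 491 CPM in control 1 and Kap1 KD 1, and at 721 and 778 CPM in control 2 and Kap1 KD 2. Its relative Gsto2 stood at 0.844 and 0.939 CPM in number 1 and 2.88 and 2.74 CPM in number 2, a log2 fold change of 1.66 (SE 0.22; Benjamini-Hochberg adjusted p = 2.72e-13, edgeR quasi-likelihood test). For both genes the samples fell by number and not by Kap1 KD. Gsta4, Aldh1l1 and the cholesterol sulfotransferase gene Sult2b1 had log2 fold changes of 1.17, 1.11 and 1.08, and Cyp21a1 had 2.79. Without the Kap1 KD term Gsta4 was no longer called, at a log2 fold change of 1.16.

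On the lower side, the sulfotransferase gene Sult1c2 stood at 12.4 and 20.9 CPM in control 1 and Kap1 KD 1, and at 3.14 and 3.12 CPM in control 2 and Kap1 KD 2. The retinoic acid hydroxylase gene Cyp26b1 had a log2 fold change of -2.57 and Aldh3a1, an enzyme for aromatic and fatty aldehydes, one of -1.87. Cyp26b1 had 55 and 45 counts in control 1 and Kap1 KD 1, and 1 and 16 counts in control 2 and Kap1 KD 2. Its number 2 samples by themselves would not have passed the filter on low counts, so its fold change is a description. Cyp2c40 and Ugt2b34 had log2 fold changes of -1.29 and -1.26, and Cyp2c40 was no longer called without the Kap1 KD term, at -1.31. Cyp2c40 had 11 and 6 counts in control 2 and Kap1 KD 2, too few by themselves for the filter on low counts. Its fold change is likewise a description. Ugt2b34 stood at 70.0 and 96.3 CPM in number 1 and 33.0 and 35.7 CPM in number 2, so its 2 numbers did not overlap while its groups did.

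**Figure D4:**
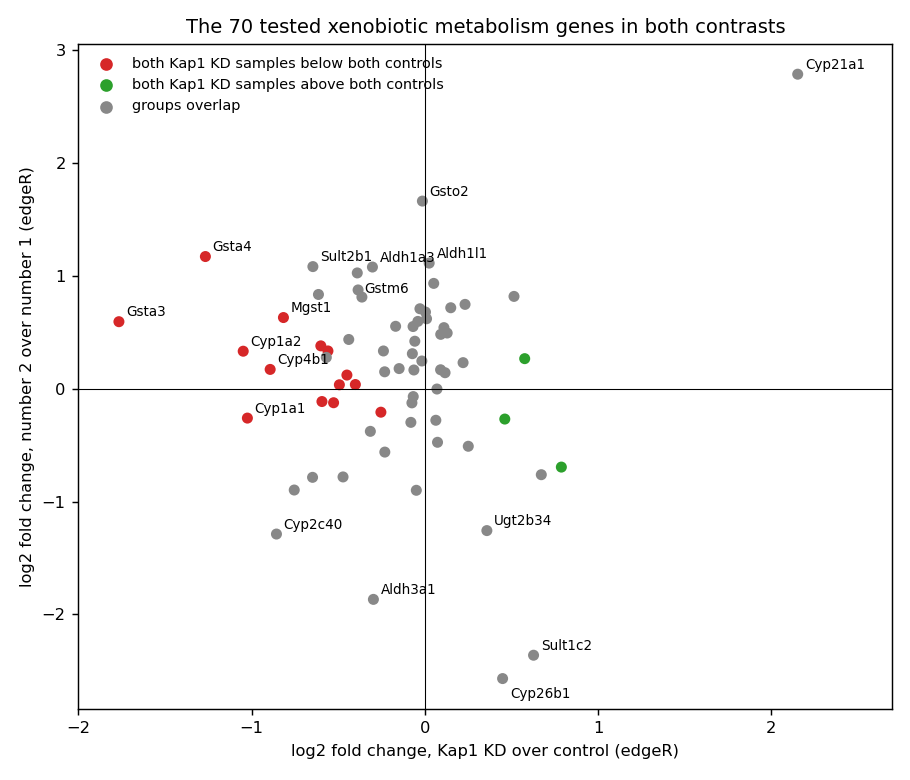
Each point is a tested member, with its log2 fold change for Kap1 KD over control on the x axis and for number 2 over number 1 on the y axis, from fits to the same 4 samples. Red points have both Kap1 KD samples below both controls and green points above, and Cyp21a1, Gsto2, Sult1c2 and Cyp26b1 lie far out on the y axis.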

How the data were processed

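Polyadenylated RNA of 4 Hepa 1-6 samples was used, 2 per group. Per the labels and methods, the authors aligned reads to mm9 with TopHat2 2.0.11, kept 1 alignment per read, and deposited raw counts per gene made with HTSeq 0.6.1. The members and lists were chosen with earlier results of these data known. Of 21915 gene identifiers, 21806 matched the mm9 annotation (GENCODE vM1). Counts were filtered with filterByExpr, scaled by TMM and fitted with edgeR 4.0.16 (R 4.3.3), using the quasi-likelihood test without a term for the sample number and Benjamini-Hochberg adjustment over 14142 genes, with calls at 1.5-fold and an adjusted p under 0.05. The number contrast had Kap1 KD as a term. DESeq2 1.42.0, other size factors, no filter, no fold threshold, leaving out each sample and a replicate block were alternatives. Fits were tested on simulated data. Within-number log2 differences used CPM plus 0.1. Named genes were the target, the receptors, the 20 highest levels, the 10 largest changes each way without overlap among genes with at least 100 counts, the 5 largest number differences each way, and textbook liver genes. Depth was 41566888 to 53605115 counts per sample. The name of the count table says small RNA, but its columns carry the titles of the mRNA samples and its values are counts per gene over the whole annotation, so it was taken as the mRNA table. Tables that list only tRNA and snoRNA sequences were not used.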

Additional observations from a re-analysis of the deposited data

How the results depend on the processing

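Against 0 genes called in Kap1 KD, DESeq2 called 3, and leaving out 1 sample gave 3 to 53, where the lone sample is assumed to vary like the rest. Members called were 0 to 1 on leaving out 1 sample. Other size factors, no filter and no fold threshold gave 0. With the replicate block edgeR called 631 genes (4.46%) and 13 members, 2 higher (Cyp21a1, Ugt2b35) and 11 lower (Gsta3, Gsta4, Cyp1a1, Cyp1a2, Cyp4b1, Mgst1, Cyp2c68, Cyp39a1, Sult2b1, Cyp4v3, Aldh1l2), against 2.06% higher and 2.4% lower over all tested genes. DESeq2 with the block, chosen after seeing the data, called 234 genes (1.65%) and 5 members. There were 2 pairs only, and the labels do not say that a number marks a shared batch, so the samples share only a number. The deviations of same-numbered samples from their group means correlated at 0.813 across genes, which are not independent replicates. Non-overlap counts were 8 to 19 higher and 25 to 35 lower on leaving out 1 sample, also chosen after seeing the data, where all tested genes gave 21.9% to 36.3% higher and 23.3% to 38.7% lower. Under DESeq2 size factors they were 3 higher and 15 lower (21.4%), against 10.1% and 10% of all tested genes, and on total counts 3 and 16 (22.9%), against 7.98% and 12.8%. Between numbers, 16 members were higher and 6 lower by DESeq2, and 13 higher and 4 lower without the Kap1 KD term, against 19 and 10, with 2810 and 2936 of all tested genes called. Gsta4, Mgst1, Cyp2c40, Aldh1a2 and Ugt2b35 were the named genes no longer called without that term.

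Over the named genes in Kap1 KD, under DESeq2, other size factors, the block and leaving out each sample, 45 log2 fold changes had the other sign, 286 kept sign and call, and 19 kept sign and became called. Trim28 was called by DESeq2, with the block and on leaving out each sample in turn. With the block Gsto2 was at 0.0016, and between numbers Trim28 was at 0.22 without the Kap1 KD term. The cause was not tested. Of members without overlap, Aldh1l2 was at -0.36 without control 1 and Aldh6a1 at 0.38 without Kap1 KD 2. For genes that changed sign on leaving out 1 sample, the log2 fold change in Kap1 KD ranged from -0.18 to 0.051 for Aldh18a1, -0.59 to 0.45 for Aldh1a2, -0.50 to 0.82 for Aldh1l1, -0.40 to 0.27 for Aldh2, -1.95 to 0.62 for Aldh3a1, -0.19 to 0.41 for Aldh7a1 and -0.23 to 0.13 for Aldh9a1. For P450 genes it ranged from -0.077 to 3.63 for Cyp21a1, -0.57 to 4.93 for Cyp26b1, -0.37 to 0.48 for Cyp2e1, -0.23 to 0.075 for Cyp2r1, -0.12 to 0.43 for Cyp2s1, -0.62 to 0.089 for Cyp3a13 and -0.24 to 0.61 for Cyp4f16. For transferases and Nr1i3 it ranged from -0.031 to 0.24 for Gstm2, -0.21 to 0.60 for Gsto1, -0.98 to 1.14 for Gsto2, -0.29 to 0.41 for Gstp1, -0.39 to 0.42 for Gstp2, -0.28 to 0.18 for Gstt1, -0.31 to 0.39 for Nr1i3, -1.31 to 1.93 for Sult1c2, -1.15 to 0.14 for Sult2b1 and -0.53 to 1.0004 for Ugt2b34. Depth limits the 16 untested members and genes such as Gsta3 and Cyp1a2, where a few counts move a value.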
